A study of Mus musculus with 6 samples.

Results

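Untreated ZNF cells were compared with the untreated cells of BBC and BCRF8C, a set of 3 mouse lines of SCLL, stem cell leukemia and lymphoma, that all came from the bone marrow of diseased mice of the Balb/c strain. In this cancer of blood precursors, part of another protein is fused to the kinase domain of the growth factor receptor FGFR1. The ZNF cells compared here had been kept for 24 h with DMSO, the solvent of the FGFR inhibitor BGJ398, and so had the BBC and BCRF8C cells. The protocols call these cultures ZNF112, BBC2 and BCRF8C, grown in RPMI 1640 medium with serum. No wild-type cells stand beside the lines, and the labels used here name no fusion partner, no age and no clone. A gene was called high in ZNF when its level there exceeded the higher of BBC and BCRF8C at least 2-fold, and low when it lay at least 2-fold under the lower of them. Levels are FPKM, fragment numbers scaled by transcript length and by all mapped fragments, and the difference to the nearer line, named the margin, is on the log2(FPKM + 1) scale with a limit of 1. Of 17169 gene entries, 11399 could be compared, and 561 of these (4.92%) were high and 669 (5.87%) low in ZNF. Each line gave 1 DMSO library, so there was no replicate, no p-value could be had, and a difference between libraries stands for a difference between lines only as far as 1 culture of each represents its line.

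Precursors of T cells form in the thymus, where Notch signals and the transcription factors TCF1 and GATA3 commit them to the lineage. They rearrange the genes of the antigen receptor chains with the RAG1 and RAG2 recombinase, and they display the finished chains on the surface with the CD3 proteins, which carry the signal inward through the kinases LCK and ZAP70. B cell precursors use the same recombinase, but their commitment rests on EBF1 and PAX5 and their receptor signals through CD79A and CD79B.

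The deposited table limits what could be called. All but 14 of its entries reached at least 1.02 FPKM in a BBC library, so the genes high in ZNF were drawn almost wholly from genes that a BBC library also listed. Several T cell genes, among them Cd3e, Cd4, Bcl11b, Ptcra and Rag2, were not analysed here. In all, 3778 entries were at exactly 0 in both libraries of some line (3185 in ZNF, 14 in BBC, 1640 in BCRF8C), which can be a failed estimate, and these are described apart as listed at 0. A further 1992 averaged under 1 FPKM over the DMSO libraries. The median of the compared entries was 12.4 FPKM in ZNF, 13.5 in BBC and 13.7 in BCRF8C. The 10 highest entries, mostly small non-coding RNAs, took 78.2% of the summed FPKM in ZNF, against 53.7% in BBC and 48.2% in BCRF8C. Sequencing depth is unknown, so no counting error could be attached to any value.

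Counts by this rule do not rank the lines by distance, since almost all entries were listed in BBC and rows at 0 were set apart. The same rule called 809 entries high and 263 low in BBC, and 798 high and 779 low in BCRF8C. Among entries with a conventional gene name, which leaves out receptor segments, small RNAs and provisional names, 382 were high and 530 low in ZNF. Margins of 3 or more were reached by 27 named genes above the other lines, and 34 lay as far below them. Over all compared entries, ZNF minus the mean of the other lines had a median of -0.11. Scaling the libraries moved that median by 0.10 (quantile normalization) or 0.15 (median of ratios), and with it the balance of the calls. As deposited, 45.6% of all calls were high, against 55.7% (664 high, 529 low) after quantile normalization and 57.5% (732 high, 540 low) after median-of-ratios scaling. Whether more genes were high or low in ZNF therefore depends on the scaling. The entries nearest the limit were Zbtb45 (14.4 FPKM in ZNF, 5.76 in BBC, 6.69 in BCRF8C) just inside the high group and Zfp759 (4.80, 1.91 and 1.87 FPKM in the same order of lines) just outside it. Mpv17l (0.316 FPKM in ZNF, 1.63 in BBC, 2.47 in BCRF8C) lay just inside the low group and Prdm9 (1.44, 4.54 and 3.89 FPKM in that order) just outside.

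**Figure D1:**
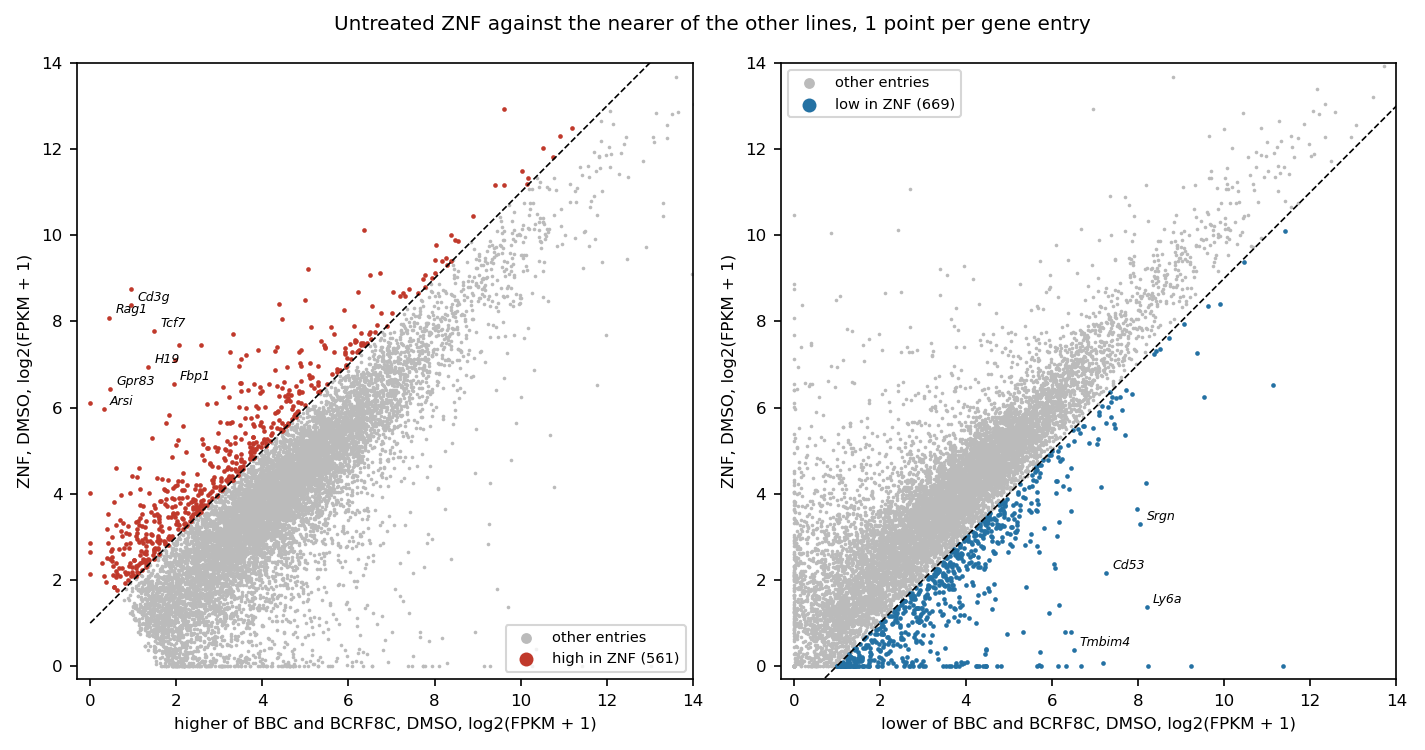
Each point is 1 gene entry, with its level in untreated ZNF on the vertical axis and, on the horizontal axis, the higher (left) or the lower (right) of untreated BBC and BCRF8C, all as log2(FPKM + 1). The dashed lines mark the limit of 1, past which 561 entries were high and 669 low in ZNF. Among named genes, receptor segments left out, Rag1, Cd3g and Tcf7 lie farthest above the line and Ly6a and Tmbim4 farthest below it. The few entries above 14 on an axis are not drawn.

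Genes of the T cell receptor complex had some of the widest margins. Cd3g, which encodes the gamma chain of CD3, stood at 335 FPKM in ZNF, 0.934 in BBC and 0.136 in BCRF8C (ENSMUSG00000002033, chromosome 9, 44777655 to 44788514 in NCBIM37, a margin of 7.44). Its neighbour Cd3d, the delta chain, had 119 FPKM in ZNF and 0.338 in BBC, and was listed at 0 in both BCRF8C libraries. Both chains were thus abundant in ZNF and below 1 FPKM in BBC, as Cd3g was in BCRF8C, where the 0 of Cd3d can be a failed estimate. Cd247, the zeta chain, had 93.2 FPKM in ZNF, 0.349 in BBC and 12.9 in BCRF8C, a margin of 2.76. In a bulk library, fewer cells that express a gene and less RNA per cell cannot be told apart.

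The RefSeq starts of Cd3g and Cd3d lie 1355 bases apart on opposite strands (GRCm38.p6), so the pair is read away from a shared stretch. Their promoters are shown because both genes were abundant in ZNF and under 1 FPKM in BBC, 250 bases upstream of each start and 5′ to 3′ along the gene. Capitals mark E boxes (CANNTG, the same on both strands), the motif bound by E proteins such as TCF12.
Cd3g promoter, chr9:44980432-44980681, minus strand: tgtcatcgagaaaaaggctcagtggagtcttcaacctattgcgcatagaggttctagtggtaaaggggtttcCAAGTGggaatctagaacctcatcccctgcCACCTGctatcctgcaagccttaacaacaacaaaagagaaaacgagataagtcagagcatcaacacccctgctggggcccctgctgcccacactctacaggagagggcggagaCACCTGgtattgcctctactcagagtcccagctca
Cd3d promoter, chr9:44981536-44981785, plus strand: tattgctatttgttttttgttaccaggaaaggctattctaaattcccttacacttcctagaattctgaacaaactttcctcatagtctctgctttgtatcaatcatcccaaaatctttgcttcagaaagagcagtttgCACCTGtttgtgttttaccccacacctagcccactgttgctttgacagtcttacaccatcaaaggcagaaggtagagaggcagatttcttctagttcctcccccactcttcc
The stretch before Cd3g holds 3 E boxes and that before Cd3d holds 1. CACCTG, the variant common to both, occurs in each. A TCF/LEF motif (CTTTGA, or the same run ending in T, on either strand) matched 3 times before Cd3d and 0 times before Cd3g. For GATA factors the letters AGATAA were searched on both strands, with 1 match before Cd3g and 0 before Cd3d. A match is a run of letters and not a measured site, and no match says only that these letters are not in this window.

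Other surface proteins of T cells were higher in ZNF in part. The list of the receptor complex and T surface held 19 genes, of which 8 were compared. Of these, 6 (Cd3g and Cd247 among them) were high, none low and 2 in between (4.92% high and 5.87% low over all entries). The median difference of the compared members to the mean of the other lines was 2.76, against -0.11 over all compared entries. Cd27, a costimulatory receptor, had 23.1 FPKM in ZNF, 1.20 in BBC and 0.0851 in BCRF8C. Ctla4, which restrains costimulation, had 15.3, 1.58 and 0.819 FPKM in the same order of lines, and the coreceptor chain Cd8a had 7.34, 0.880 and 0.0886 FPKM. Cd2, an adhesion receptor, only just passed the limit with 20.6 FPKM in ZNF, 9.75 in BBC and 0.168 in BCRF8C. The exceptions were Thy1, a surface marker of thymocytes that BCRF8C shared (158 FPKM in ZNF, 31.6 in BBC, 92.3 in BCRF8C), and Cd28, the main costimulatory receptor. Cd28 had 3.29 FPKM in ZNF and 2.77 in BBC, both far under the 24.2 in BCRF8C. Cd5, a receptor that restrains T cell signals, and Icos, a costimulatory receptor of activated T cells, were listed at 0 in ZNF.

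The receptor chains themselves were looked up after their values had been seen, and segments of a family are so alike that the authors' counting could split their reads. Among the entries for variable segments of the beta chain, Trbv13-1 alone was above 10 FPKM in ZNF. It had 278 FPKM there, 0.886 in BBC and was listed at 0 in BCRF8C, and the next of the 7 beta variable entries reached 2.90 FPKM in ZNF. The constant segment Trbc2 had 365 FPKM in ZNF, 0.887 in BBC and was listed at 0 in BCRF8C. Of the 7, 2 were at 0 in the ZNF DMSO library, and segments without an entry were not analysed here. Trbv13-1 and Trbc2 were thus near the level of Cd3g in ZNF, as separate entries that do not show a joined transcript. For the gamma chain, Trgv2 had 428 FPKM in ZNF, 0.916 in BCRF8C and 0 in the BBC DMSO library. The gamma constant entry Tcrg-C was shared by the lines, at 215 FPKM in ZNF, 32.0 in BBC and 97.4 in BCRF8C. The constant segment of the alpha chain, Trac, was less abundant in ZNF than Trbc2 and Tcrg-C, at 16.2 FPKM. It was still above the 1.79 FPKM in BBC and 3.56 in BCRF8C, with a margin of 1.91. None of the 27 alpha and delta variable entries passed 3.75 FPKM in ZNF, and 16 of them were at 0 in its DMSO library. In BBC 3 of them had at least 10 FPKM, the highest 33.2.

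**Figure D2:**
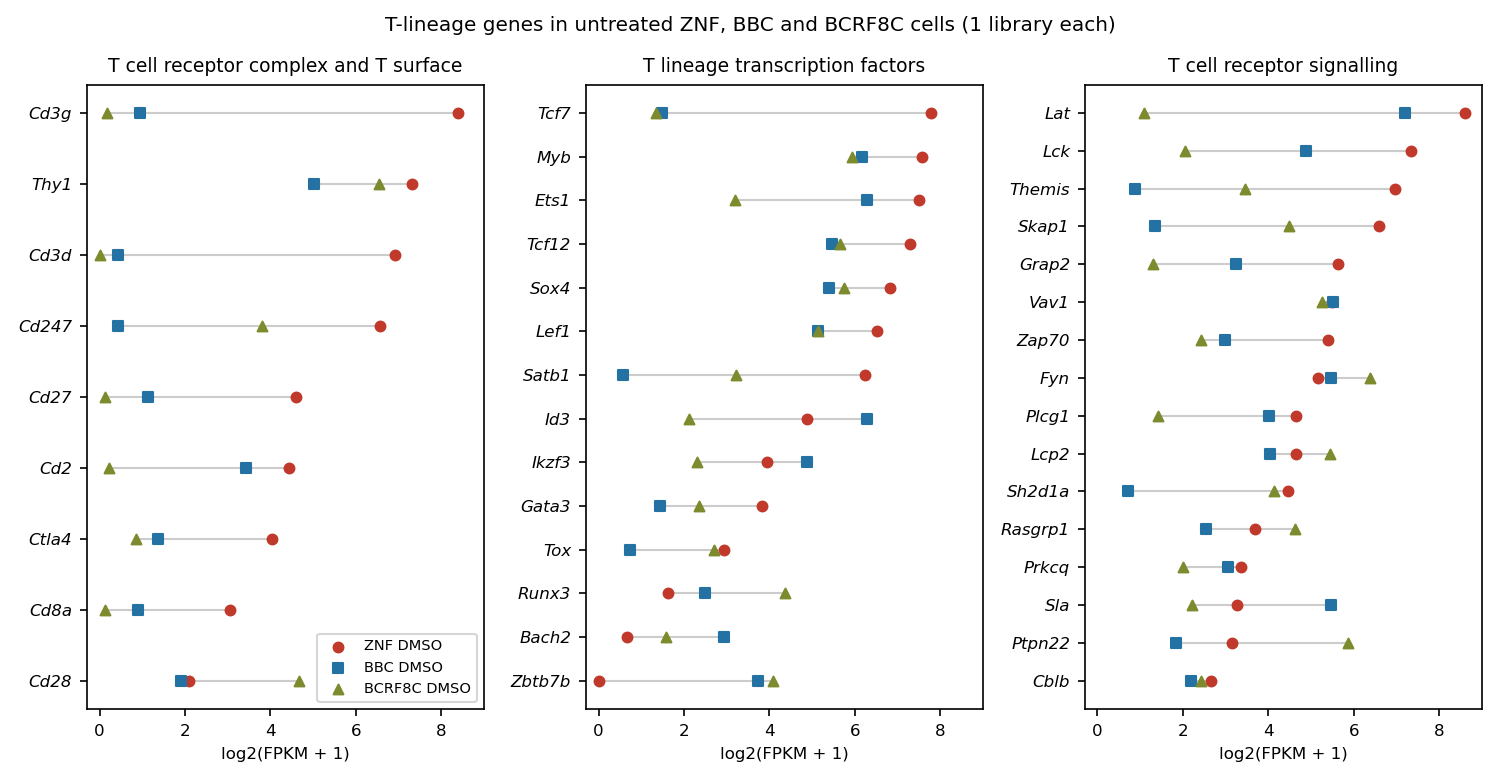
Levels of compared members of 3 T-lineage gene lists, with Cd3d added, in the untreated ZNF (circles), BBC (squares) and BCRF8C (triangles) libraries, on a log2(FPKM + 1) axis with genes ordered by their level in ZNF. ZNF lies right of both other lines for Cd3g, Cd3d, Tcf7 and Lck, whereas Zbtb7b is the leftmost point and Cd28 and Fyn are highest in BCRF8C.

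Transcription factors of the T lineage followed the receptor genes. Of 17 on the list, 14 were compared, and 8 were high, 1 low and 5 in between in ZNF. Over all entries 4.92% were high and 5.87% low. The median difference of the list to the mean of the other lines was 1.33 (-0.11 over all entries). Tcf7, which encodes TCF1, had 217 FPKM in ZNF, 1.79 in BBC and 1.56 in BCRF8C, a margin of 6.29, and its locus in the table also holds other entries. Satb1, a chromatin organiser of thymocytes, had 74.5 FPKM in ZNF, 0.491 in BBC and 8.32 in BCRF8C. These were the widest margins of the list, and the other factors that were high had a base in BBC, BCRF8C or both.

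Lef1, the close relative of Tcf7, had 90.9 FPKM in ZNF, 34.3 in BBC and 34.0 in BCRF8C. Gata3, which with TCF1 commits cells to the T lineage, had 13.1, 1.72 and 4.10 FPKM in the same order. Ets1 had 180 FPKM in ZNF, 77.4 in BBC and 8.12 in BCRF8C. Broadly used factors of lymphoid precursors, the E protein gene Tcf12, Myb and Sox4, were also high, each at over 40 FPKM in both other lines and with margins of 1.62, 1.41 and 1.10. The single low member was Zbtb7b, the factor that directs thymocytes to the CD4 lineage. It had 0.001 FPKM in ZNF, which is the smallest value above 0 in that column, 12.3 in BBC and 16.0 in BCRF8C. Runx3, which directs the CD8 lineage, was in between at 2.10 FPKM in ZNF, 4.59 in BBC and 19.7 in BCRF8C.

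Proximal signalling of the T cell receptor was higher in part. Of 20 genes, 17 were compared, and 6 were high, none low and 11 in between (4.92% high and 5.87% low over all entries). The median difference was 1.94. Lck, the kinase that starts the signal, had 161 FPKM in ZNF, 28.6 in BBC and 3.12 in BCRF8C. Zap70, the kinase that docks on CD3, had 41.4, 6.87 and 4.34 FPKM in that order of lines. Themis, a regulator of thymocyte selection, showed the widest margin of the list (3.50), at 123 FPKM in ZNF, 0.837 in BBC and 10.0 in BCRF8C. The adaptor genes Lat, Grap2 and Skap1 were high as well. Lat had 386 FPKM in ZNF, 145 in BBC and 1.12 in BCRF8C, so BBC held a good part of the ZNF level. Fyn, the second SRC-family kinase of T cells, was lowest in ZNF, at 34.8 FPKM, with 43.0 in BBC and 82.4 in BCRF8C. Vav1 was nearly level, at 44.1, 44.6 and 37.3 FPKM in ZNF, BBC and BCRF8C. Sh2d1a, an adaptor gene, was near its BCRF8C level and far from that of BBC, with 20.9 FPKM in ZNF, 0.654 in BBC and 16.4 in BCRF8C.

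Genes of V(D)J recombination include lymphoid enzymes and general repair proteins. Rag1 had a margin of 7.65, the widest of the named genes outside the receptor segments, with 272 FPKM in ZNF, 0.360 in BBC and 0.001 in BCRF8C (ENSMUSG00000061311, on chromosome 2 at a locus that 3 entries share). Dntt, the polymerase that adds bases at the joints, was not particular to ZNF. It had 264 FPKM there and 61.1 in BBC, and was listed at 0 in BCRF8C. Of 12 genes of V(D)J recombination, 10 were compared, and 3 were high, none low and 7 in between, with a median difference of 0.74. Over all entries 4.92% were high and 5.87% low. The other list members that were high encode the Ku proteins of end joining. Xrcc6 had 209.7 FPKM in ZNF, 49.7 in BBC and 23.9 in BCRF8C, and Xrcc5 had 44.0, 20.9 and 19.4 FPKM. Hmgb1, a DNA-bending cofactor of the recombinase, was lowest in ZNF, at 343 FPKM, with 711 in BBC and 449 in BCRF8C.

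The Rag1 promoter is shown because its gene led the named genes outside the receptor segments, with the E boxes again in capitals.
Rag1 promoter, chr2:101649533-101649782, minus strand: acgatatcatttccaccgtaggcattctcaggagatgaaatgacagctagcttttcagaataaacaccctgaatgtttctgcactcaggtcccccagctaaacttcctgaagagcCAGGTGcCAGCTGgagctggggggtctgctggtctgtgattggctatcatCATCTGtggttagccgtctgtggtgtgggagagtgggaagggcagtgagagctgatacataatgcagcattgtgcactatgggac
It holds 3 E boxes, with no match to the TCF/LEF or GATA letters. Such matches were common. E boxes were present in the same 250-base stretch of 57.1% of the 282 high named genes with a RefSeq promoter, of 59.1% of 411 low ones and of 54.9% of all 7055 compared ones. For the TCF/LEF letters the shares were 21.6% of high, 21.2% of low and 20.3% of compared genes. AGATAA was found in 8.16% of high, 6.33% of low and 5.50% of compared genes, which for the high group is 23 promoters. None of these shares sets the high genes far from the compared ones.

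Notch genes were not higher as a group. Of 17, 10 were compared, and 1 was high, 1 low and 8 in between (4.92% high and 5.87% low over all entries). The median difference was -0.37. The receptor gene Notch1 was the high one, at 39.0 FPKM in ZNF, 9.37 in BBC and 0.544 in BCRF8C. Its targets Hes1 and Nrarp were not the highest in ZNF. Hes1 had 11.4 FPKM in ZNF, 31.0 in BBC and 3.34 in BCRF8C, and Nrarp had 10.1, 10.7 and 1.09 FPKM. Dtx1, another target, had 9.39 FPKM in ZNF, 5.50 in BBC and 0.0405 in BCRF8C. The low member was Maml3, a coactivator gene, at 1.56 FPKM in ZNF, 6.19 in BBC and 8.35 in BCRF8C.

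B-lineage genes were listed at 0 in ZNF, which can be a failed estimate, or had low values there. Of 18 on the list, 12 were listed at 0 there, against 3185 of all 17169 entries. Among the 12 were Cd79b, Vpreb1 and Igll1, the signalling and surrogate light chain genes of B cell precursors. In BBC these had 232, 171 and 546 FPKM. The list summed to 7.16 FPKM in ZNF, 2920 in BBC and 17.9 in BCRF8C, with genes listed at 0 added as 0. The highest member in ZNF was Cd72 at 2.93 FPKM. Pax5 had 0.215 FPKM in ZNF, 84.7 in BBC and 0.0518 in BCRF8C, and Cd79a had 0.178, 179 and 0.148 FPKM. By the rule, under which 5.87% of all compared entries were low in ZNF, none of the 5 compared members was low. In BCRF8C 4 of them were under 1 FPKM, and Cd72 was at 6.24 FPKM there, a margin of -0.88 for ZNF.

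Few markers of other blood lineages could be judged in ZNF, since many had no entry or were listed at 0, which can be a failed estimate. Of 20 myeloid genes, 14 had no entry and 3 (Mpo, Csf3r and Lyz2) were listed at 0 in ZNF. Cebpb, a factor that many cell types share, was the member with the most signal, at 21.4 FPKM in ZNF, 7.73 in BBC and 20.3 in BCRF8C. Of 12 genes of red cell and platelet precursors, 4 were listed at 0 in ZNF, the haemoglobin genes Hba-a1 and Hbb-b1 among them. Another 4 were compared, 1 high and 3 in between (4.92% high and 5.87% low over all entries). Their median difference was 0.80 (-0.11 over all entries). Gata1, a factor of red cell and platelet precursors, passed the limit at a low level, with 5.17 FPKM in ZNF, 1.37 in BBC and 0.159 in BCRF8C. With a pseudocount of 5 its margin was 0.675, short of the limit. Of 11 natural killer and cytotoxic genes, 5 had no entry and 3 were listed at 0 in ZNF. The 3 compared ones, Nkg7, Eomes and Gzma, were all in between. Prf1, Klrd1 and Klrb1c were listed at 0 in ZNF and had 489, 52.8 and 32.7 FPKM in BCRF8C, and Nkg7 had 0.585 FPKM in ZNF, 1.54 in BBC and 288 in BCRF8C. The protease gene Gzma departed from these, with 1055 FPKM in ZNF, 0.832 in BBC and 887 in BCRF8C. Collagen gene Col1a2, a stromal marker, was at 0.0363 FPKM in ZNF, 1.88 in BBC and 1.16 in BCRF8C. The part of any admixed cells in the results was not tested.

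Beyond these lists, the named genes with the widest margins above both lines were a mixed group. Gpr83, a G protein-coupled receptor gene, had 85.3 FPKM in ZNF, 0.377 in BBC and 0.0467 in BCRF8C (chromosome 9, 14664654 to 14675233 in NCBIM37). Arsi, a sulfatase gene, had 61.3, 0.247 and 0.0201 FPKM, and H19, an imprinted long non-coding RNA, had 122, 1.53 and 0.0733 FPKM in the same order. These transcripts were well expressed in ZNF and close to silent in the other lines. Endou, a gene for an RNA endonuclease, had 137 FPKM in ZNF, 2.91 in BBC and 1.20 in BCRF8C. Akr1c13, an aldo-keto reductase gene with close paralogs, had 593 FPKM in ZNF, 9.59 in BBC and 32.4 in BCRF8C.

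The gluconeogenic enzyme gene Fbp1 had 92.1 FPKM in ZNF, 2.83 in BBC and 0.001 in BCRF8C. Marcksl1, a regulator of the actin cytoskeleton, had 157, 5.40 and 8.53 FPKM in that order, and Arpp21, an RNA-binding protein gene, had 55.7, 2.55 and 0.599 FPKM. Ptpn14, a phosphatase gene, and Spint2, a protease inhibitor gene, are also among the 15 widest, at 23.4 and 48.7 FPKM in ZNF with margins of 4.01 and 3.88. Nearly all of the 15 had a level under 10 FPKM in both other lines, which a ranking by the margin over the higher line favours. The exception was Akr1c13.

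Among entries listed at 0 in BCRF8C, Pld4, a member of the phospholipase D family, had 78.2 FPKM in ZNF and 6.15 in BBC, and Ralgps2, an exchange factor gene for Ral proteins, had 35.5 in ZNF and 3.48 in BBC. Ccdc109b, a subunit gene of the mitochondrial calcium channel, had 52.8 FPKM in ZNF and 1.14 in BBC. No fold is given against the 0.

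The genes low in ZNF were led by Ly6a, which encodes the stem and T cell surface antigen Sca-1. It had 1.58 FPKM in ZNF, 293 in BBC and 831 in BCRF8C, a margin of -6.83, and Ly6 genes are close paralogs. Tmbim4, which encodes a Golgi membrane protein, had 0.293 FPKM in ZNF, 110.1 in BBC and 89.8 in BCRF8C. S100a10, the partner of annexin A2, had 0.742 FPKM in ZNF, 86.5 in BBC and 493 in BCRF8C (chromosome 3, 93359002 to 93368565 in NCBIM37). All were abundant in both other lines and near or under 1 FPKM in ZNF.

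Several other genes of this group are known from blood cells. Irf8, a transcription factor of B and myeloid cells, had 0.734 FPKM in ZNF, 203 in BBC and 77.4 in BCRF8C, and its locus in the table is a stretch shared by 64 entries. Cd53, a leukocyte tetraspanin, had 3.50, 152 and 179 FPKM in the same order. Srgn, the granule proteoglycan serglycin, had 8.87, 265 and 611 FPKM. Ifi30, a lysosomal thiol reductase gene of antigen processing, had 1.69 FPKM in ZNF, 70.4 in BBC and 85.6 in BCRF8C, and Gimap6, a GTPase gene of lymphocytes, had 1.34, 94.7 and 60.2 FPKM. Tmsb4x, which encodes the actin-binding peptide thymosin beta 4, was still abundant in ZNF at 91.5 FPKM but reached 2254 in BBC and 3483 in BCRF8C. Samhd1, which hydrolyses deoxynucleotides, had 0.676 FPKM in ZNF, 29.8 in BBC and 35.2 in BCRF8C. In all, 147 named genes of the low group were under 1 FPKM in ZNF.

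A set that the rule kept apart was listed at 0 in both ZNF libraries. Of its entries, 54 had at least 10 FPKM in both other DMSO libraries, and 24 of these were named genes. Csda, a cold shock domain gene, had 109 FPKM in BBC and 200.2 in BCRF8C. Cd74, the invariant chain of MHC class II, had 196 FPKM in BBC and 49.0 in BCRF8C, and the carbonic anhydrase gene Car2 had 434 and 57.1 FPKM. Mef2c, a transcription factor of lymphoid and myeloid progenitors, had 31.5 FPKM in BBC and 15.4 in BCRF8C. A listed 0 in a gene expressed in the other lines may be a low level or a failed estimate, and these cannot be told apart.

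Genes of antigen presentation that passed a limit were low in ZNF. For MHC class I, 14 of 14 genes were compared, and none was high, 4 were low and 10 in between. Over all entries 4.92% were high and 5.87% low. The class I median difference was -0.80, with a summed level of 1770 FPKM in ZNF, 4560 in BBC and 3930 in BCRF8C. B2m, the light chain, had 1100.3 FPKM in ZNF, 2905 in BBC and 2718 in BCRF8C. Tapbp, which encodes the peptide loading factor tapasin, had 17.1, 75.5 and 120.4 FPKM, and Nlrc5, the transactivator of class I genes, had 6.90, 22.3 and 20.1 FPKM in the same order. H2-D1 had 159 FPKM in ZNF, 543 in BBC and 342 in BCRF8C, although its margin of -1.10 became -0.97 after median-of-ratios scaling. The class I heavy chains are close paralogs whose reads could be split. Of 5 compared class II genes, 2 were low (H2-Aa and H2-Ab1) and none was high. H2-Aa had 0.275 FPKM in ZNF, 8.01 in BBC and 24.7 in BCRF8C. Of 15 compared interferon response genes, none was high and 3 were low (Irf8, Gbp2 and Oasl2), against 4.92% high and 5.87% low over all entries. Oasl2 no longer reached the limit after quantile normalization (-0.84) or with a pseudocount of 5 (-0.41), and Irf9 lay in between, with 25.9 FPKM in ZNF, 26.8 in BBC and 20.1 in BCRF8C.

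**Figure D3:**
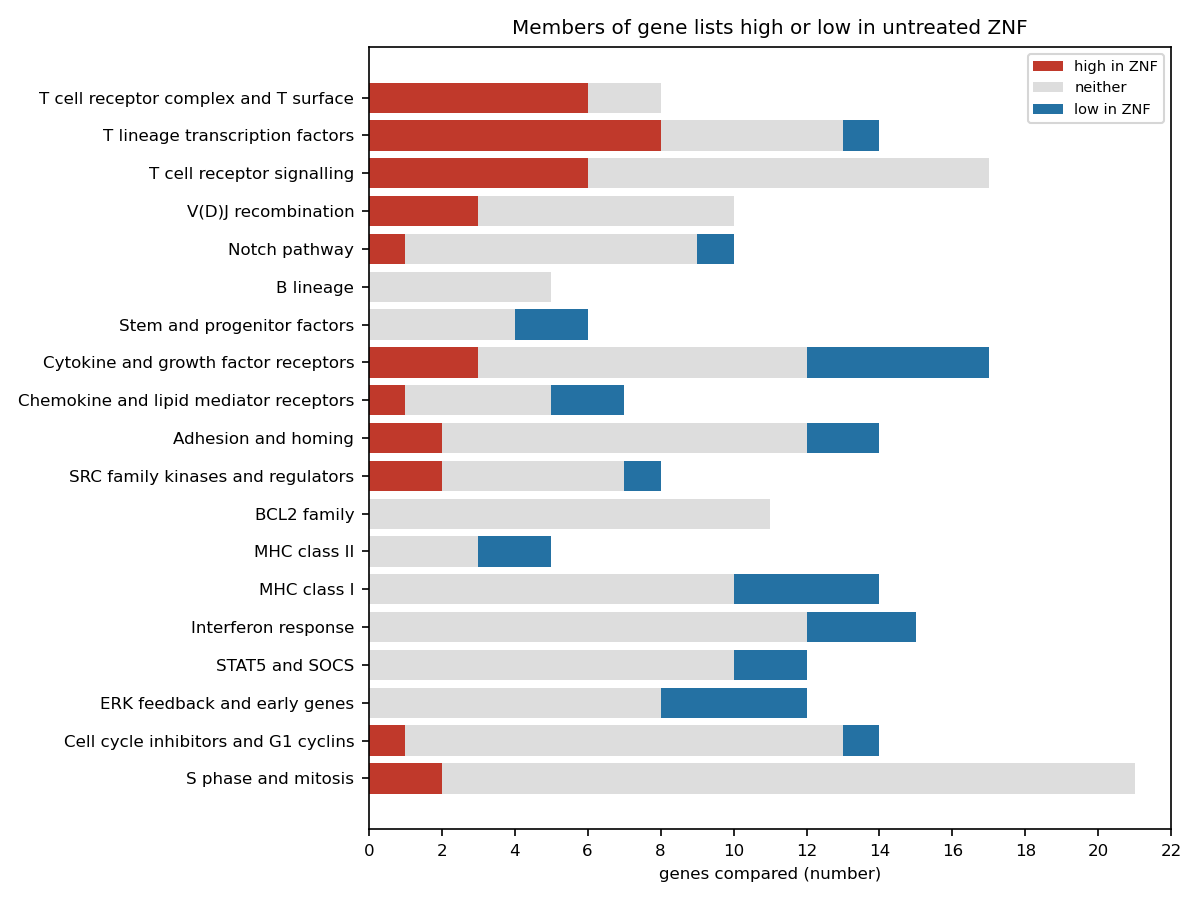
Number of compared genes of each list with at least 5 compared members that were high (red), in neither group (grey) or low (blue) in untreated ZNF. The T-lineage lists hold 6 of 8, 8 of 14 and 6 of 17 high genes and 1 low gene between them. The lists for MHC, the interferon response, STAT5, ERK feedback, and stem and progenitor factors hold low genes with none high. Over all entries 4.92% were high and 5.87% low.

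Receptors for cytokines and growth factors went both ways. Of 17 compared, 3 were high, 5 low and 9 in between (4.92% high and 5.87% low over all entries). The median difference was -0.52. Tgfbr1, a TGF-beta receptor chain, was high at 66.4 FPKM in ZNF, 4.82 in BBC and 5.52 in BCRF8C, whereas its partner Tgfbr2 was low at 3.10, 21.3 and 13.4 FPKM. The interleukin 9 receptor gene Il9r had 8.98 FPKM in ZNF, 0.705 in BBC and 0.0365 in BCRF8C. Il4ra, the interleukin 4 receptor alpha chain, had 0.0797 FPKM in ZNF, 6.98 in BBC and 71.4 in BCRF8C. Il2ra, the alpha chain of the interleukin 2 receptor and a stage marker of thymocytes, was also low, at 2.26 FPKM in ZNF, 20.5 in BBC and 29.6 in BCRF8C. Il7r, which early T and B cell precursors depend on, was near 0 in ZNF and BCRF8C alike, with 0.135 FPKM in ZNF, 52.4 in BBC and 0.0160 in BCRF8C. Fgfr1, the gene behind the fusion kinase, was in between with 12.8 FPKM in ZNF, 36.7 in BBC and 0.510 in BCRF8C, and the entry does not separate the fusion from the normal gene.

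Homing and adhesion genes also split. Of 14 compared, 2 were high, 2 low and 10 in between (4.92% high and 5.87% low over all entries). The integrin gene Itga6 was high, at 43.1 FPKM in ZNF, 15.5 in BBC and 9.69 in BCRF8C, and with Cd53 the integrin gene Itga4 was low, at 0.558, 9.62 and 4.61 FPKM. Of 7 compared genes for chemokine and lipid receptors, 1 was high, 2 low and 4 in between, with a median difference of -1.15. A further 5 of that list were listed at 0 in ZNF. Cxcr4, the receptor for the bone marrow chemokine CXCL12, was high at 210.3 FPKM in ZNF, 76.8 in BBC and 30.7 in BCRF8C. S1pr4 was low with a margin of -2.07, which became -0.96 with a pseudocount of 5. Ccr7, the lymph node homing receptor, was low at 0.944 FPKM in ZNF, 3.15 in BBC and 3.47 in BCRF8C, near its limit. Of the SRC-family kinases, Lck and Fgr were high and Lyn low. Fgr had 5.41 FPKM in ZNF, 1.48 in BBC and 1.01 in BCRF8C. Lyn had 0.0637 FPKM in ZNF, 23.2 in BBC and 15.2 in BCRF8C, so the lines differed in which member was most abundant. Lck had the highest FPKM of the compared kinases of that family in ZNF, Fyn in BBC and BCRF8C.

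The ERK and STAT5 pathways induce feedback and growth genes. Of 12 compared ERK feedback and early genes, none was high, 4 were low and 8 in between (4.92% high and 5.87% low over all entries). The median difference was -1.37. Dusp6, an ERK phosphatase gene that ERK itself induces, had 11.1 FPKM in ZNF, 85.8 in BBC and 87.1 in BCRF8C. Etv4, an ETS factor gene downstream of FGF receptors, had 0.342, 10.3 and 17.5 FPKM in the same order, and Jun had 1.19, 16.7 and 15.9 FPKM. Dusp4, another ERK phosphatase gene, went the other way, at 16.6 FPKM in ZNF, 3.16 in BBC and 10.3 in BCRF8C. On the STAT5 list, the kinase genes Pim1 and Pim2 were low and none of 12 was high, against 5.87% low and 4.92% high over all entries. Pim2 had 2.54 FPKM in ZNF, 23.2 in BBC and 21.9 in BCRF8C. Socs2, a STAT5 target that restrains cytokine signals, was highest in ZNF without reaching the limit, at 278 FPKM, with 228 in BBC and 109 in BCRF8C.

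Genes of growth and survival were also looked at. Of 21 genes of S phase and mitosis, 19 were in between. Mcm3 and Mcm4, subunits of the replicative helicase, were just high with margins of 1.11 and 1.06. None was low, against 4.92% high and 5.87% low over all entries. Top2a had 384 FPKM in ZNF, 327 in BBC and 349 in BCRF8C. Myc was nearly level at 63.2, 71.3 and 64.4 FPKM in ZNF, BBC and BCRF8C, whereas Mycn, a relative of Myc, was low at 1.26, 9.92 and 12.2 FPKM. Among G1 cyclins, Ccnd1 was high at 14.3 FPKM in ZNF, 1.23 in BBC and 3.78 in BCRF8C. None of the 11 compared BCL2 family genes passed a limit as deposited, where 4.92% of all entries were high and 5.87% low. After quantile or median-of-ratios scaling 1 of them was high. Bcl2 came closest on the high side as deposited, with 79.2 FPKM in ZNF, 3.14 in BBC and 39.6 in BCRF8C.

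Genes high or low in ZNF were not spread evenly over the chromosomes, a feature that the rule did not use. On chromosome 1, 70 of 662 entries (10.6%) were high and 32 (4.83%) low. Chromosome 7 had 8.03% high and 4.33% low entries, and chromosome 15 had 8.27% high and 3.07% low, against 4.92% and 5.87% over all entries. Chromosomes 3, 5 and 10 had the opposite balance, with 10.2%, 10.0% and 9.52% low entries. The medians of chromosomes 1, 7 and 5 also differed from those over all entries. The median of ZNF minus BBC was 0.43 on chromosome 1 and 0.50 on chromosome 7, and that of ZNF minus BCRF8C was 0.37 and 0.26, while over all entries these medians were -0.06 and -0.11. On chromosome 5 they were -0.50 and -0.31. Both differences share the ZNF library.

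These differences of the medians were seen along the length of chromosomes 1, 7 and 5. In each of 4 equal lengths of chromosome 1 the median of ZNF minus the mean of the others lay between 0.27 and 0.47, and on chromosome 7 between 0.31 and 0.42, above the all-entry median in 4 of 4 cases. On chromosome 5 it lay between -0.67 and -0.28. This evenness was not particular to these chromosomes. All 4 lengths also lay above the all-entry median on chromosomes 12, 14, 15 and 16, and none did on chromosomes 3, 9, 10, 18 and X. In the BGJ398 libraries, where the median over all entries was 0.50, chromosomes 1 and 7 again lay above it (0.87 and 0.92) and chromosomes 3 and 5 below it (0.13 and 0.21). On the X chromosome the 2 comparisons differed, with medians of -0.77 against BBC and -0.12 against BCRF8C. The number of chromosome copies in the lines was not measured here.

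**Figure D4:**
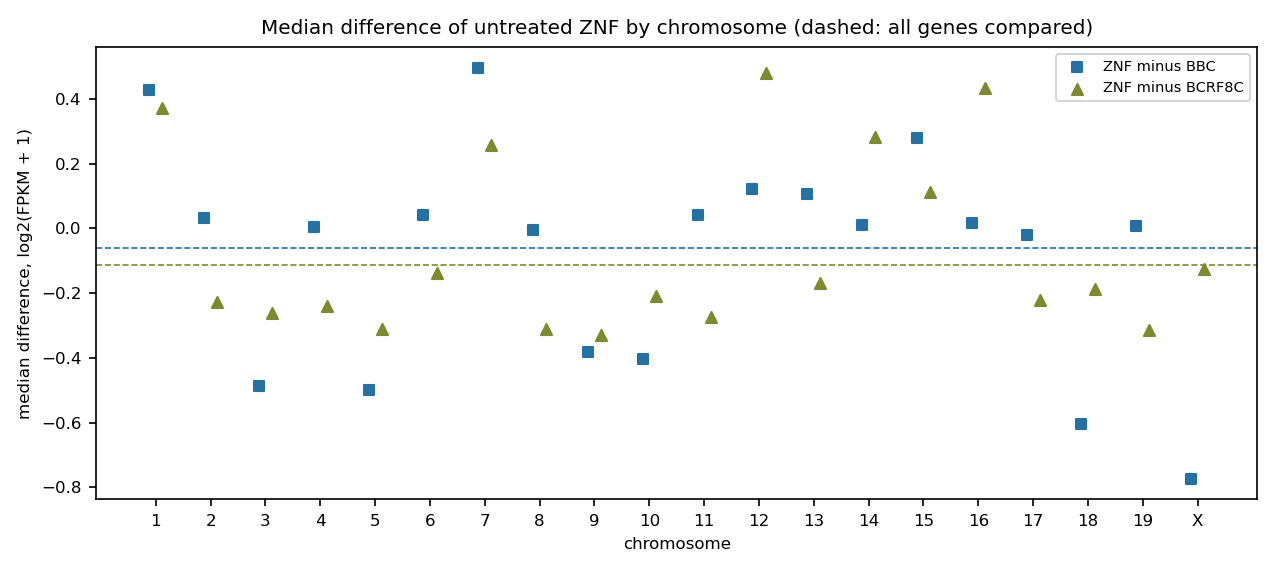
Median over the compared entries of each chromosome of untreated ZNF minus BBC (squares) and ZNF minus BCRF8C (triangles), in log2(FPKM + 1), with dashed lines at the medians over all entries (-0.06 and -0.11). Chromosomes 1, 7, 12, 14, 15 and 16 lie above both lines and chromosomes 3, 5, 9, 10, 18 and X below both.

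The libraries of cells kept for 24 h with BGJ398 were used by the rule only to set apart entries at 0 in both libraries of a line, and they give the order of the lines a second time, under another agent, at doses that differed between lines. Values there ran higher in ZNF in general, with medians of 8.70 FPKM in ZNF, 5.49 in BBC and 6.14 in BCRF8C, and entries near 0 with DMSO often read between 1 and 2 FPKM. The high limit was therefore passed by 18.4% of all compared entries and the low one by 2.25%. Against these, 367 of the 561 entries high in ZNF with DMSO (65.4%) were also past the high limit with BGJ398, and 510 (90.9%) had their highest value in ZNF, which 57.8% of all entries did. Of the 669 low entries, 160 (23.9%) were past the low limit again and 469 (70.1%) had their lowest value in ZNF, which 17.4% of all entries did. After median-of-ratios scaling of the BGJ398 libraries, 276 (49.2%) of the high and 249 (37.2%) of the low entries were past the limit, against 8.90% and 4.74% of all compared entries. On both scales these shares were thus larger than those over all compared entries. The latter take no account of the order with DMSO. Entries chosen for a wide margin in the same lines would be above them to begin with, so how well an order is kept was not tested.

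Of the 20 genes of the 3 T-lineage lists that were high with DMSO, 16 passed the limit again with BGJ398 and 19 had their highest value in ZNF. Among all 561 high entries these shares were 65.4% and 90.9%, and over all compared entries 18.4% and 57.8%. The T-lineage genes were counted on the values as deposited only, which ran higher in ZNF. Ets1, Sox4 and Gata3 were highest in ZNF without reaching the limit, and Ctla4 had 3.37 FPKM in ZNF, 3.77 in BBC and 1.69 in BCRF8C. With BGJ398, Rag1 had 482 FPKM in ZNF, 1.69 in BBC and 1.59 in BCRF8C, and Cd3g had 186, 1.57 and 1.21 FPKM in that order. Tcf7 had 128 FPKM in ZNF, 1.90 in BBC and 4.42 in BCRF8C. Cd3d had 68.8 FPKM in ZNF and 1.84 in BBC and was listed at 0 in BCRF8C. Under either agent Rag1, Cd3g and Tcf7 were far above both lines and Cd3d was far above BBC. Other leading genes kept less. H19 had 6.90 FPKM in ZNF, 1.17 in BBC and 1.83 in BCRF8C, a margin of 1.48 against 5.60 with DMSO. Etv4, low in ZNF with DMSO, was highest in ZNF with BGJ398, with 5.29 FPKM in ZNF, 0.484 in BBC and 2.28 in BCRF8C. The low genes Ly6a and Tmbim4 stayed low, the first at 1.33 FPKM in ZNF, 14.5 in BBC and 329 in BCRF8C.

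**Figure D5:**
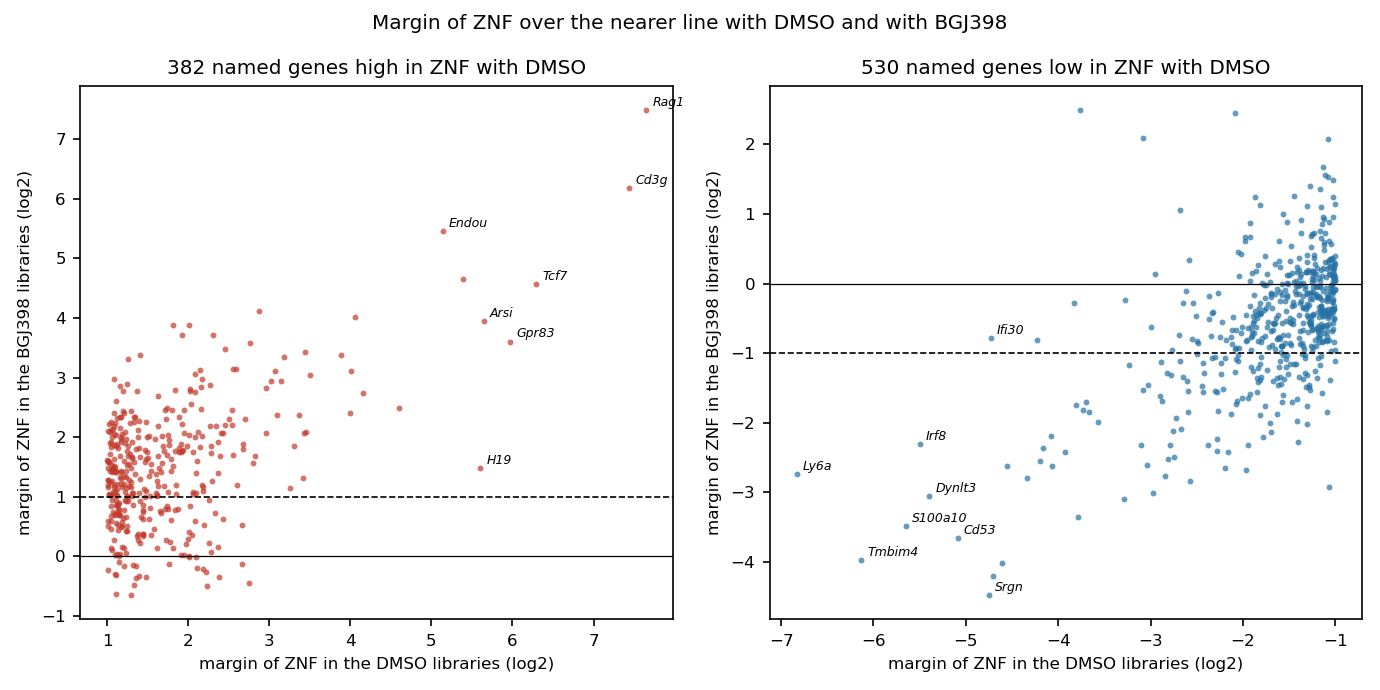
Margin of ZNF over the nearer line in the BGJ398 libraries (vertical) against that in the DMSO libraries (horizontal), in log2, for the 382 named genes high (left) and the 530 low (right) in ZNF with DMSO. Dashed lines mark the limit, which 264 of the high and 140 of the low genes passed again. Over all compared entries 18.4% passed the high and 2.25% the low limit with BGJ398. After median-of-ratios scaling, which is not drawn, 199 of the high and 216 of the low genes passed. Rag1 and Cd3g keep margins over 6, whereas many low genes with a DMSO margin near -1 lie around 0.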

How the data were processed

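The authors deposited 1 table of FPKM values with 17169 gene entries and 6 library columns, and the column names matched the sample titles, so 0 value columns stayed unmapped. The build NCBIM37 and the tools TopHat2 2.0.12 and bcl2fastq stand in the submitters' processing notes. How FPKM were estimated, with what annotation, strand setting and treatment of reads shared by paralogs, is not given in the sources used here. Values were used without rescaling, as log2(FPKM + 1), which understates differences of low genes, for entries averaging 1 FPKM or more in the 3 DMSO libraries. Gene names, identifiers and positions are those of the table, with 1 added to each start, since the locus then had the annotated length for 6377 of 15944 matched entries. For 548 entries that share a symbol, the entry with the highest mean stood for the gene. Python 3.11.15 with pandas 2.3.3 and numpy 2.4.6 was used, and the calling step was tested on simulated data. With 1 library per line and agent, no test was made. Genes named were the 4 markers Cd3g, Cd3d, Tcf7 and Rag1, the 15 widest margins each way, members of 25 lists (up to 5 widest margins, defining markers and members listed at 0), up to 10 entries listed at 0 in a line each way, and those nearest the limit. Some genes that this rule names are not reported here. The members and lists were chosen with earlier results of these data known. Promoters were those of RefSeq (GRCm38.p6), 250 bases before the first listed start of each symbol. The alternatives were another pseudocount, filter, scaling or margin, keeping entries at 0, and comparing ZNF with 1 line or the mean.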

Additional observations from a re-analysis of the deposited data

How the results depend on the processing

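The counts of 561 high and 669 low entries stayed within 1.5 times of themselves under a pseudocount of 0.1, no filter or a filter at 5 FPKM, quantile or median-of-ratios scaling, and with entries at 0 kept in. They became 340 and 289 with a pseudocount of 5, and 154 and 155 with a margin of 2. Against BBC alone they were 987 and 1668, against BCRF8C alone 1510 and 1784, and against the mean of both 1058 and 1468. With entries that have a locus of their own, a setting chosen after seeing the data as was the one with named genes only, 442 were low. Of the margins of 94 named genes none was reversed under the pseudocounts and scalings tried, and 18 no longer reached the limit with a pseudocount of 5, 5 with quantile and 4 with median-of-ratios scaling. Calls lost with the pseudocount of 5 included Cd2, Gata3, Gata1, Xrcc5, Fgr, Maml3, Itga4, Csf2ra and Il6st, and those of Ccr7 and Hhex were lost under both scalings too and those of Col1a2 and Oasl2 under quantile normalization. Depth is unknown. No paired analysis was possible because each line has 1 library per agent and the comparison is between lines. No library could be left out, since each group has 1.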
